A study of Mus musculus with 12 samples.

Results

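The 19 WNT ligand genes, the 10 Frizzled receptors with the co-receptors Lrp5 and Lrp6, and 9 genes of secreted inhibitors were followed in cultured mouse oligodendrocyte precursor cells (OPCs). These 40 genes were taken by symbol, out of 55536 genes in the annotation, and all 40 were found. The list was drawn up with earlier results of these data known. The bulk RNA-seq experiment holds 12 libraries, 3 in each of 4 groups. All groups were primary OPCs from the brains of Sox10:Cre-RCE:LoxP(EGFP) pups at postnatal days 4 to 6, isolated as Sox10GFP+ cells by FACS or as CD140a+ cells by MACS, with brains pooled and with replicates from different litters, and all were grown in medium with PDGFaa and bFGF. Ctr cells received neither agent. EZH2i cells received EPZ011989, a small molecule that inhibits the H3K27 methyltransferase EZH2, at 1.5 μM for 4 days. IFN-γ cells received 100 ng/ml of the cytokine for the last 6 h, and IFN-γ + EZH2i cells received both. The labels name EAE, a mouse model of multiple sclerosis, for every library, whereas the study's methods describe cultures from pups. In such bulk samples, fewer cells of a type and less RNA per cell cannot be told apart.

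WNT proteins are secreted, lipid-modified ligands that bind Frizzled receptors. Together with LRP5 or LRP6, a bound Frizzled stabilises β-catenin, which then acts in the nucleus with TCF/LEF factors; other WNT-Frizzled pairs act on cell polarity and the cytoskeleton instead. SFRP proteins and WIF1 bind the ligands outside the cell, whereas DKK proteins typically act on LRP5 and LRP6. In the oligodendrocyte lineage the pathway is known to influence when precursors differentiate, and OPCs are a known source of Wnt7a and Wnt7b that act on brain endothelium.

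Of the 40 genes, 28 passed edgeR's filter on low counts: 11 of the 19 ligands, all 12 receptors and co-receptors, and 5 of the 9 inhibitors. The 12 genes left out were Wnt1, Wnt3a, Wnt6, Wnt8a, Wnt10a, Wnt10b, Wnt11, Wnt16, Dkk1, Dkk2, Dkk4 and Sfrp5, and none of them held more than 16 counts in any library. Wnt1, Wnt3a, Wnt8a, Wnt10a, Wnt10b and Dkk1 were at the detection floor, taken as 3 counts or fewer in each library, in all 4 groups. Among the tested genes, 25 were over the filter's level of 0.297 CPM, a library's counts scaled to its total, in every library. The other three, Wnt8b, Wnt9b and Wif1, passed it in only 3, 5 and 6 of the 12 libraries. Wnt8b reached that level in the 3 EZH2i libraries and in 0 of the other 9, so its entry into the test depended on the group where it was high. Wif1 reached it in all 3 EZH2i libraries and in 0 to 2 of each other group.

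Library totals lay between 17403896 and 66546017 counts (median 33625880), with the shallowest library, Ctr replicate 2, 3.82 times below the deepest. The labelled cell type was checked by marker genes. All 7 OPC markers were detected, with a summed level of 8111 to 8375 CPM in Ctr, 6700 to 7100 in EZH2i, 5292 to 7130 in IFN-γ and 4304 to 5199 in IFN-γ + EZH2i. Pdgfra and Cspg4, the PDGFRα and NG2 genes that define OPCs, fell with IFN-γ both without and with EZH2i, and Gpr17 fell with IFN-γ in the presence of EZH2i. The 6 microglial markers summed to at most 1.68 CPM and the 6 fibroblast markers to at most 2.72 CPM in any library, with 5 of each list under 1 CPM in every library. The 6 astrocyte markers summed to 644 to 2137 CPM, and the groups overlapped. Markers of mature oligodendrocytes summed to 792 to 1025 CPM in Ctr, 496 to 853 in EZH2i, 746 to 872.5 in IFN-γ and 473 to 701 with both agents, the last group lying below Ctr and IFN-γ without overlap. Those of Schwann and neural crest cells summed to 181 to 296 CPM and those of ependyma and choroid plexus to 6.58 to 16.0 CPM, and no marker of the mature oligodendrocyte, astrocyte, microglial, endothelial or ependymal lists passed the test in any comparison.

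In Ctr cells the ligand pool was dominated by Wnt7b and Wnt7a. In TPM, which corrects for transcript length and so allows genes to be set side by side within a library, Wnt7b had 18.1 ± 3.88 TPM and Wnt7a 12.03 ± 3.11 TPM (mean ± SD, n = 3, as in all that follows), and the ranges of these 2 genes overlapped. Wnt5a followed at 1.91 ± 1.09 TPM, with no overlap with Wnt7a, and then Wnt5b at 1.28 ± 0.636 TPM and Wnt2b at 0.986 ± 0.264 TPM, each overlapping its neighbour in this order. The remaining ligands reached at most 0.334 TPM in any Ctr library, with Wnt3, Wnt2, Wnt4 and Wnt9a on top, each overlapping the next. Together, Wnt7a and Wnt7b made up 85.3 ± 0.531% of the summed TPM of the 19 ligands in Ctr.

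All Frizzled genes were detected. Fzd1 led with 16.0 ± 3.23 TPM, overlapped by the co-receptor Lrp6 at 14.1 ± 2.11 TPM and, below it, by Fzd3 at 11.3 ± 4.60 TPM. Fzd9 (4.62 ± 0.867 TPM) and Fzd8 (3.28 ± 0.825 TPM) came next and overlapped each other but neither Fzd3 above nor Lrp5 below. Lrp5, Fzd10, Fzd2, Fzd7, Fzd4 and Fzd5 formed a run of overlapping levels from 1.88 ± 0.369 down to 1.08 ± 0.0539 TPM. Fzd6 stood last and apart, at 0.158 ± 0.0692 TPM. Among the inhibitors, Sfrp1 (2.02 ± 0.534 TPM), Sfrp2 (1.92 ± 1.09 TPM) and Sfrp4 (1.07 ± 0.400 TPM) were the most abundant, each overlapping the next, followed by Dkk3 at 0.373 ± 0.127 TPM. Wif1 was at 0.0911 ± 0.0543 TPM, and Dkk1 was listed at 0 in all 3 Ctr libraries.

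**Figure D1:**
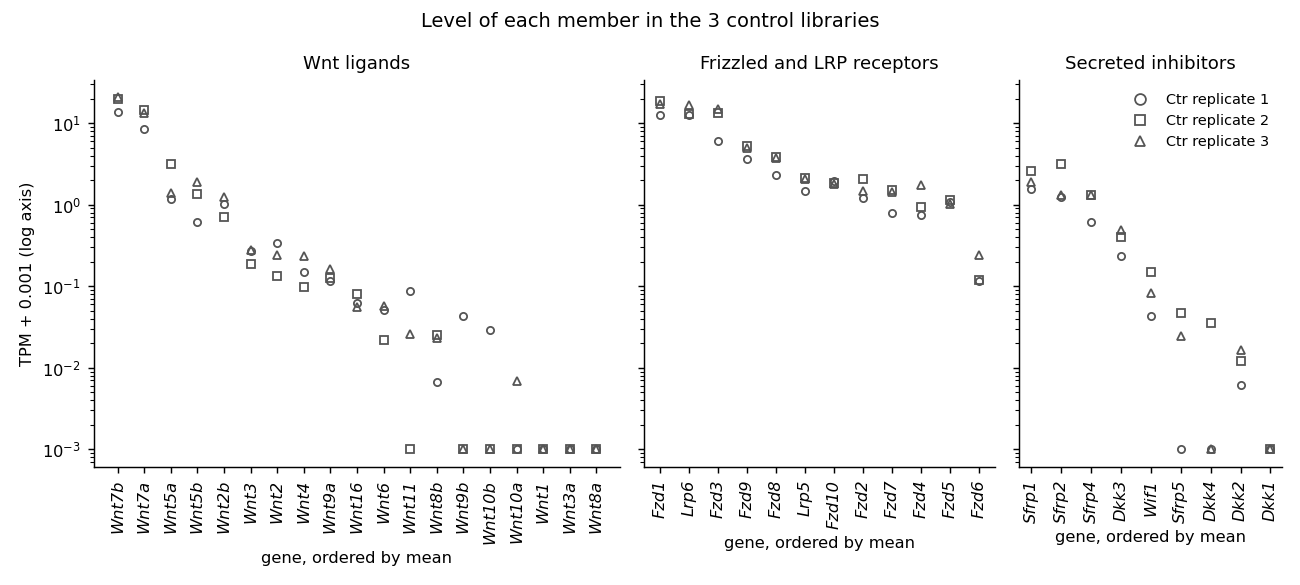
Level of each of the 40 genes in the 3 Ctr libraries, in TPM plus 0.001 on a log axis, with genes ordered by their mean within each class and 1 symbol per replicate. Wnt7b and Wnt7a stand above the other ligands, and Fzd6 stands below the other 11 receptors and co-receptors.

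Fzd6 was the single gene of the 28 to pass the test with EZH2 inhibition, and it did so without and with IFN-γ. Fzd6 encodes a Frizzled best known from planar cell polarity in the skin. It measured 0.886, 0.677 and 0.882 CPM in the 3 Ctr libraries against 3.29, 4.17 and 3.05 CPM in EZH2i, where CPM is scaled by edgeR's TMM factors. With IFN-γ it measured 1.17, 1.17 and 1.20 CPM, against 4.44, 5.29 and 3.43 CPM with IFN-γ + EZH2i. Every library with the inhibitor was thus above every library without it. The change was 4.23-fold without IFN-γ (log2 fold change 2.08 ± 0.25, SE, adjusted p = 0.00508 by edgeR's quasi-likelihood test and the Benjamini-Hochberg method). With IFN-γ it was 3.70-fold (log2 1.89 ± 0.24, edgeR adjusted p = 0.00654), and this call was lost without IFN-γ replicate 2 (adjusted p = 0.0560), on the 6 libraries compared alone (0.0985), and with length-scaled TPM in place of counts (0.171). Fzd6 lies at chr15:39006034-39038188 (GRCm38, plus strand) and overlaps Gm26704 on the opposite strand. One transcript held 97.7% of its counts in Ctr and 91.9% in EZH2i. As a share of the summed TPM of the 10 Frizzled genes, Fzd6 made up 0.375 ± 0.124% in Ctr and 1.51 ± 0.491% in EZH2i.

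A count of 1 of 28 was read against 0.405% of all 18995 tested genes without IFN-γ and 0.353% with it. The median log2 fold change of the 28 genes was 0.36 in each comparison, against 0.01 and -0.01 over all tested genes. In each, 21 of the 28 lay above 0, where 51% of all genes did without IFN-γ and 49.1% with it. The 28 include Wnt8b and Wif1, which reached the filter's level in all libraries of EZH2i and of no other group. These 2 genes add no support to the median or the count. With the replicate number as a block in the fit of all 12 libraries, 3 genes passed with IFN-γ (3.94% of all genes did). The numbers were taken to pair IFN-γ with IFN-γ + EZH2i, but this fit also blocked the Ctr libraries, for which no pairing was taken. The added genes were Fzd1 (edgeR adjusted p = 0.776 without the block, 0.0150 with it) and the inhibitor Sfrp2 (0.840 and 0.0161). Marker sums of other cell types also moved with the inhibitor. The 6 neuronal markers summed to between 16.1 and 19.4 CPM in the Ctr libraries and between 31.0 and 49.4 CPM in EZH2i, and the 6 endothelial markers to between 14.0 and 21.2 CPM and between 25.2 and 40.1 CPM. The fibroblast sum was also higher without overlap, at 0.282 to 0.831 CPM in Ctr and 0.880 to 2.18 CPM in EZH2i, whereas the mural sum was lower, at 25.3 to 37.0 CPM and 21.25 to 23.95 CPM. In the presence of IFN-γ the neuronal sum was again higher with the inhibitor, at 34.9 to 62.6 CPM against 18.1 to 29.99 CPM. So was the endothelial sum, at 21.1 to 36.4 CPM against 13.0 to 19.6 CPM. The mature oligodendrocyte sum was lower there, at 473 to 701 CPM against 746 to 872.5 CPM. The OPC sum was lower with the inhibitor both without IFN-γ and with it (4304 to 5199 CPM against 5292 to 7130 CPM with it). None of the markers of these lists passed the test without IFN-γ, and Stmn2, a neuronal marker, passed it with IFN-γ, as did Tfap2a of the neural crest list. The part of such cells in the Fzd6 difference was not tested.

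Wnt2b, a ligand of the β-catenin branch, lay next to the threshold. Its level was 5.07, 3.22 and 4.46 CPM in Ctr against 10.3, 10.0 and 9.91 CPM in EZH2i, with no overlap. The log2 fold change was 1.24 ± 0.24 (2.36-fold, edgeR adjusted p = 0.0566; DESeq2 adjusted p = 0.000435). In the presence of IFN-γ the inhibitor gave 0.69 ± 0.24 (edgeR adjusted p = 0.474), with 11.2, 9.30 and 5.63 CPM in IFN-γ against 13.1, 14.2 and 14.8 CPM with both agents, again without overlap.

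The remaining genes of each class did not pass the test with EZH2i. Wnt7a and Wnt7b had log2 fold changes of -0.06 ± 0.21 and 0.04 ± 0.19 without IFN-γ. The other ligands ranged from -1.13 ± 0.40 for Wnt3 to 2.63 ± 0.77 for Wnt8b. Wnt8b was close to the floor, with 0.0355, 0.113 and 0.0678 CPM in Ctr against 0.322, 0.603 and 0.380 CPM in EZH2i. Among the receptors apart from Fzd6, values lay between -0.22 ± 0.14 for Fzd8 and 0.75 ± 0.42 for Fzd10. Fzd1 was at 97.5, 109 and 85.3 CPM in Ctr and 140, 142 and 110 CPM in EZH2i, just without overlap (log2 0.43 ± 0.17, edgeR adjusted p = 0.571). The inhibitors Sfrp1 (0.62 ± 0.28), Sfrp2 (0.90 ± 0.39) and Wif1 (1.75 ± 0.52) had positive values, and Dkk3 (-0.21 ± 0.23) a negative one. Wif1 held 0.106, 0.339 and 0.204 CPM in Ctr against 0.679, 0.795 and 0.637 CPM in EZH2i. In total, 12 of the 28 genes had no overlap between Ctr and EZH2i, where 12.7% of all tested genes had none. These 12 include Wnt8b and Wif1, which reached the filter's level in all libraries of EZH2i and of no other group. In the presence of IFN-γ it was 4 of the 28, where 10.3% of all genes had none.

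**Figure D2:**
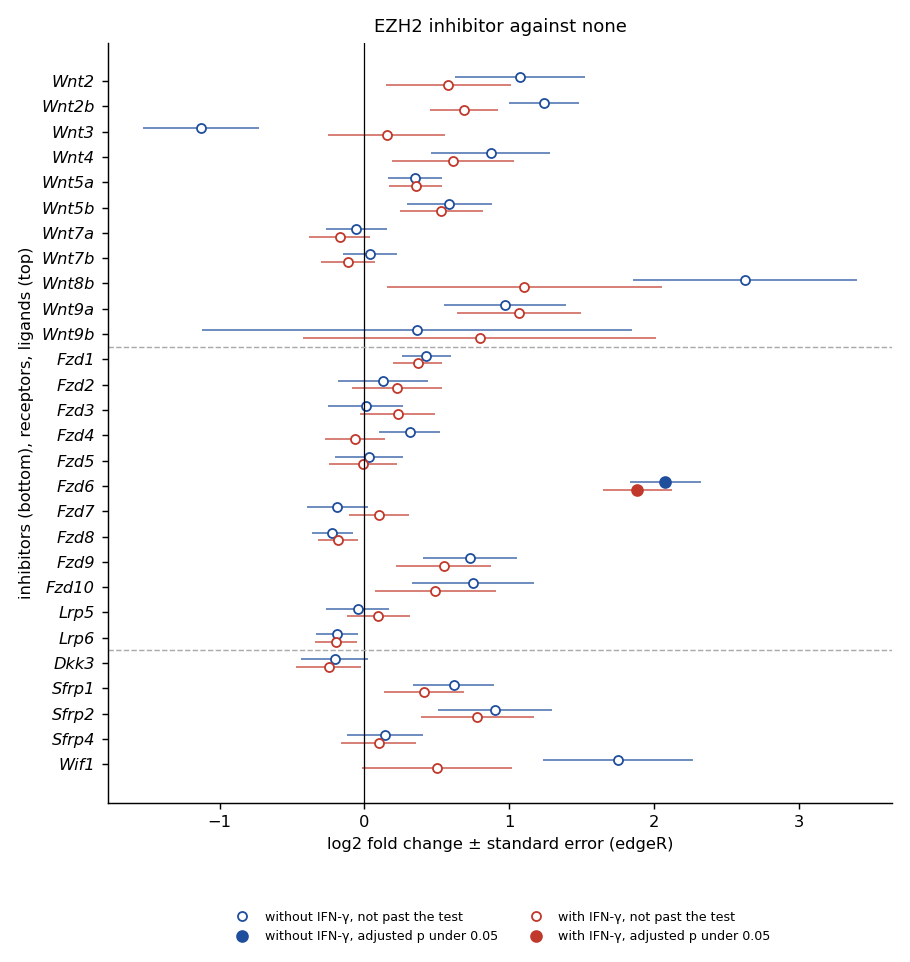
Log2 fold change with its standard error for the 28 tested genes with EZH2i against none, without IFN-γ (blue) and with IFN-γ (red), from edgeR; filled points have an adjusted p under 0.05 and dashed lines separate ligands, receptors and inhibitors. The filled points are those of Fzd6, at 2.08 and 1.89.

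IFN-γ moved members of every class within 6 h. Without EZH2i, 6 of the 28 genes passed the test, where 8.75% of all tested genes did. Wnt2b, Wnt5a, Fzd7, Dkk3 and Sfrp1 rose, as did 6.65% of all genes, and Wnt7a fell, as did 2.1%. In the presence of EZH2i, 5 passed (8.07% of all genes did, 5.9% higher and 2.17% lower), in the same directions, and Wnt2b did not. The medians over the 28 genes were -0.05 and -0.11 on the log2 scale, against 0.00 over all genes in each comparison. In each, 13 of the 28 lay above 0, where 50.1% and 50.2% of all genes did. Groups did not overlap for 10 and 14 of the 28 genes, against 23.0% and 21.5% of all genes. In the second comparison the replicate numbers pair the libraries. With them as a block 12 genes passed, where 19.3% of all genes did, and the 5 above were among them. The others were Wnt5b, higher, and Wnt7b, Wnt8b, Fzd1, Fzd4, Fzd10 and Wif1, lower. For 2 of the 12, Wnt8b and Wif1, EZH2i was the group with the most libraries over the filter's level, and it is one of the groups compared here, so they add no support to the count. The same holds for the 14 genes without overlap, which include both. Pdgfra and Cspg4 fell in the same libraries, while the neuronal markers Stmn2 and Syt1, the mural marker Kcnj8 and the fibroblast marker Lum rose. The neuronal sum lay between 18.1 and 29.99 CPM in IFN-γ, the mural sum between 29.9 and 34.9 CPM (25.3 to 37.0 CPM in Ctr) and the fibroblast sum between 1.84 and 2.72 CPM (0.282 to 0.831 CPM in Ctr), and the part of a change in cell state or composition in these results was not tested.

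The fall of Wnt7a took 1 of the 2 leading ligands below the level of all libraries without IFN-γ. Wnt7a was at 49.6, 62.1 and 48.6 CPM in Ctr and 22.3, 24.1 and 15.4 CPM in IFN-γ. With the inhibitor it was at 53.0, 53.8 and 47.3 CPM in EZH2i and 19.4, 22.4 and 13.1 CPM in IFN-γ + EZH2i. The fall was 2.59-fold without EZH2i (log2 -1.38 ± 0.21, edgeR adjusted p = 0.00119) and 2.81-fold with it (log2 -1.49 ± 0.21, edgeR adjusted p = 0.000650), and it passed with each of the 12 libraries left out in turn. Wnt7b measured 73.9, 77.6 and 72.1 CPM in Ctr against 61.4, 61.7 and 38.3 CPM in IFN-γ, without overlap, but its difference missed the threshold (log2 -0.47 ± 0.19, edgeR adjusted p = 0.179). With EZH2i the value was -0.62 ± 0.19 (edgeR adjusted p = 0.0665, or 0.00175 with the replicate block). As a share of all ligand TPM, Wnt7a went from 34.0 ± 1.62% in Ctr to 18.7 ± 0.636% in IFN-γ and 14.8 ± 1.87% with both agents. The 2 genes together held 69.9 ± 3.34% in IFN-γ and 59.3 ± 3.14% with both agents.

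The ligands that rose with IFN-γ were Wnt5a, without and with EZH2i, and Wnt2b, without it. Wnt5a, the ligand best known for signaling independent of β-catenin, was at 7.41, 8.47 and 8.53 CPM in Ctr and 10.7, 16.1 and 17.1 CPM in IFN-γ. It was at 10.0, 10.1 and 11.0 CPM in EZH2i and 17.1, 22.0 and 17.1 CPM in IFN-γ + EZH2i, so neither pair of groups overlapped. The rise was 1.80-fold (log2 0.85 ± 0.19, edgeR adjusted p = 0.0127) and 1.81-fold (log2 0.85 ± 0.19, edgeR adjusted p = 0.0122). It was lost with length-scaled TPM (adjusted p = 0.681 and 0.269). Without EZH2i it was also lost on the 6 libraries alone (0.0588) and when Ctr replicate 1, IFN-γ replicate 2 or IFN-γ replicate 3 was left out (adjusted p up to 0.0574), and with EZH2i when EZH2i replicate 2 or IFN-γ + EZH2i replicate 2 was (up to 0.0670). Wnt5a has 6 annotated transcripts, and its leading one held 62.6% of the counts in Ctr and 68.3% in IFN-γ. Its share of ligand TPM was 5.32 ± 2.29% in Ctr and 10.1 ± 1.66% in IFN-γ, a share that also depends on the other ligands. The TPM of Wnt5a itself overlapped between these groups, at 1.185, 3.16 and 1.39 in Ctr against 3.20, 2.92 and 2.38 in IFN-γ.

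Wnt2b, with the values given above, rose 2.03-fold with IFN-γ (log2 1.02 ± 0.24, edgeR adjusted p = 0.0193). IFN-γ replicate 3, at 5.63 CPM, lay just above the highest Ctr library. The call was lost when Ctr replicate 2 or 3 or IFN-γ replicate 1 or 2 was left out (adjusted p up to 0.0952), with length-scaled TPM (0.0511) and on the 6 libraries alone (0.106). With EZH2i present the value was 0.47 ± 0.24 (edgeR adjusted p = 0.340). The related Wnt5b had values of 0.66 ± 0.29 and 0.61 ± 0.29 on the log2 scale without and with EZH2i and passed neither time (edgeR adjusted p = 0.242 and 0.308; 0.0253 in the second with the block). Wnt2, Wnt3, Wnt4, Wnt8b, Wnt9a and Wnt9b did not pass either.

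**Figure D3:**
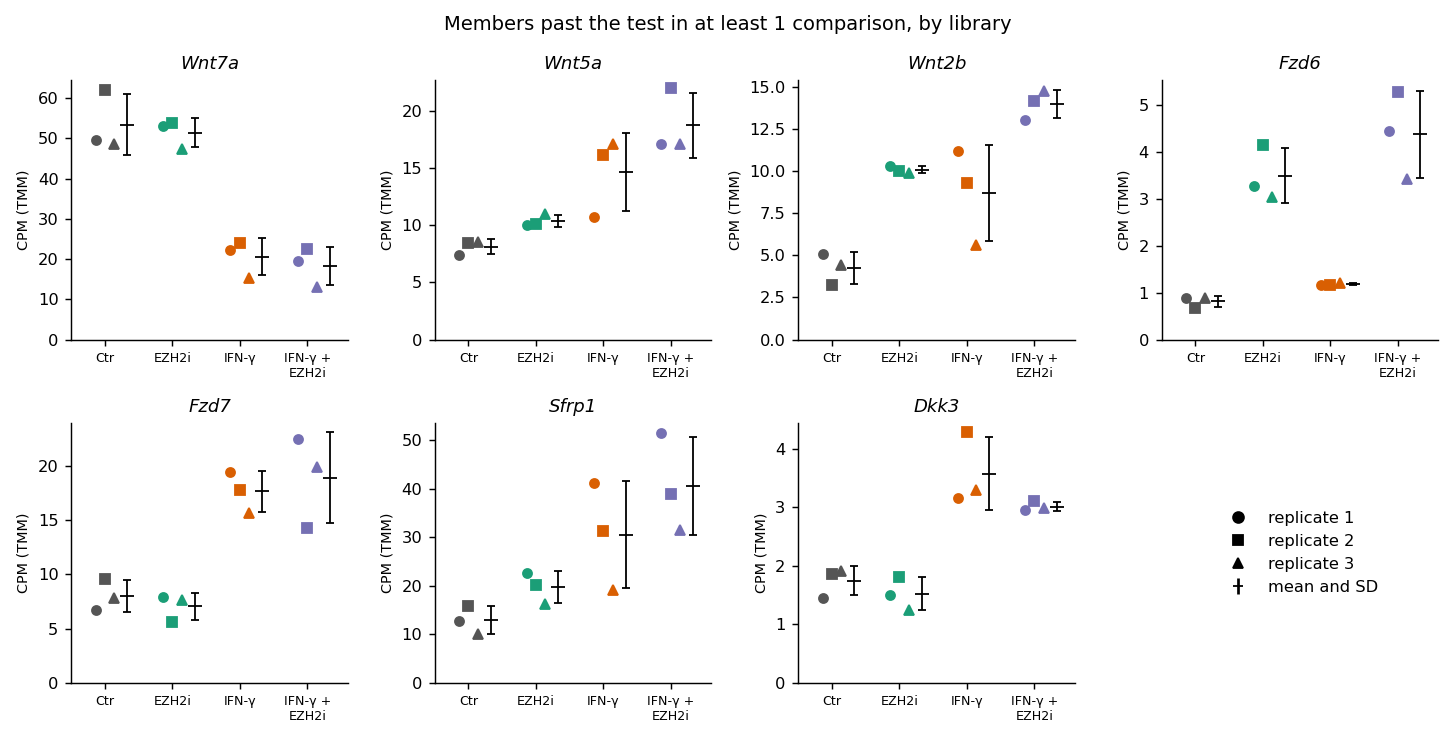
TMM-scaled CPM of the 7 genes that passed the test in at least 1 comparison, by group, with 1 symbol per replicate and the mean and SD beside them. Fzd6 is high in both groups with the inhibitor, Wnt7a is low and Fzd7, Sfrp1 and Dkk3 are high in both groups with IFN-γ, and Wnt2b lies lowest in Ctr.

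Among the receptors, Fzd7 passed the test with IFN-γ. Fzd7 is a Frizzled known from stem cell maintenance. It was at 6.67, 9.60 and 7.84 CPM in Ctr against 19.4, 17.8 and 15.7 CPM in IFN-γ, and at 7.90, 5.59 and 7.63 CPM in EZH2i against 22.5, 14.3 and 19.9 CPM in IFN-γ + EZH2i. All 6 libraries with IFN-γ were above all 6 without it. The rise was 2.20-fold (log2 1.14 ± 0.21, edgeR adjusted p = 0.00445) and 2.68-fold with EZH2i (log2 1.42 ± 0.21, edgeR adjusted p = 0.000848), and each passed with every one of the 12 libraries left out in turn. Fzd7 went from 2.90 ± 0.291% of the summed Frizzled TPM in Ctr to 6.71 ± 0.421% in IFN-γ.

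The abundant receptors had small differences with IFN-γ. Fzd1 was at 83.0, 100 and 69.1 CPM (log2 -0.21 ± 0.17 against Ctr), Fzd3 differed by -0.05 ± 0.26 and Lrp6 by -0.05 ± 0.14, and none of these passed. Fzd8 was at 26.4, 32.2 and 26.8 CPM in Ctr and 23.0, 24.1 and 20.4 CPM in IFN-γ, without overlap (log2 -0.34 ± 0.14, edgeR adjusted p = 0.204). With EZH2i present, the replicate block brought Fzd1 (edgeR adjusted p = 0.511 without it, 0.0214 with it), Fzd4 (0.295 and 0.0152) and Fzd10 (0.696 and 0.0313) past the threshold, all lower. Fzd10 had its highest level in replicate 1 and its lowest in replicate 3 in each of the 4 groups.

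The inhibitors that rose with IFN-γ were Sfrp1 and Dkk3. Sfrp1, which binds WNT ligands, was at 12.8, 15.9 and 10.0 CPM in Ctr and 41.1, 31.3 and 19.2 CPM in IFN-γ. It was at 22.7, 20.2 and 16.2 CPM in EZH2i and 51.5, 39.0 and 31.5 CPM in IFN-γ + EZH2i, and neither pair of groups overlapped. The rise was 2.38-fold (log2 1.25 ± 0.28, edgeR adjusted p = 0.0149) and 2.06-fold with EZH2i (log2 1.04 ± 0.28, edgeR adjusted p = 0.0382). The first was lost when Ctr replicate 1 or 3 or IFN-γ replicate 1 was left out (adjusted p up to 0.0717). The second held in 5 of the 12 fits with a library left out, and was lost without Ctr replicate 1, any EZH2i replicate, IFN-γ replicate 2, or IFN-γ + EZH2i replicate 1 or 2 (up to 0.148). With the replicate block its adjusted p was 0.000209. Sfrp1 made up 37.7 ± 4.23% of the inhibitors' summed TPM in Ctr and 56.7 ± 7.11% in IFN-γ.

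Dkk3, a divergent member of the Dickkopf family, was at 1.45, 1.86 and 1.92 CPM in Ctr and 3.15, 4.29 and 3.29 CPM in IFN-γ. It was at 1.50, 1.81 and 1.25 CPM in EZH2i and 2.95, 3.10 and 2.98 CPM in IFN-γ + EZH2i. Libraries with IFN-γ were again all above those without it. The rise was 2.045-fold (log2 1.03 ± 0.23, edgeR adjusted p = 0.0137) and 1.99-fold with EZH2i (log2 0.99 ± 0.23, edgeR adjusted p = 0.0183). The first missed the threshold without Ctr replicate 1 or IFN-γ replicate 2 (adjusted p up to 0.0708), and the second without EZH2i replicate 1 or 3 or IFN-γ + EZH2i replicate 2 (up to 0.0870). Both were lost on the 6 libraries alone (0.0608 and 0.0712), and the second with no filter on low counts (0.0567). Sfrp2, Sfrp4 and Wif1 had values between -0.35 ± 0.26 and 0.07 ± 0.54 without EZH2i and did not pass. Wif1 was at 0.128, 0.395 and 0.373 CPM with both agents, below all 3 EZH2i libraries (log2 -1.18 ± 0.49, edgeR adjusted p = 0.217, or 0.0474 with the block).

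**Figure D4:**
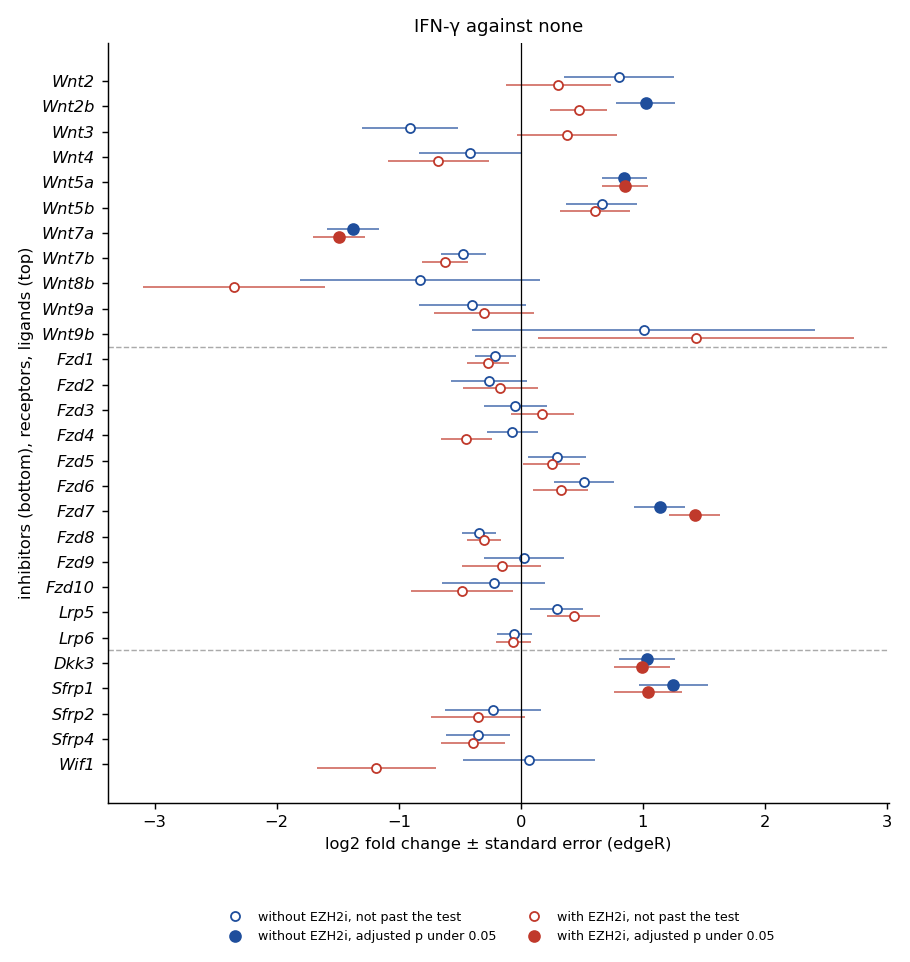
Log2 fold change with its standard error for the 28 tested genes with IFN-γ against none, without EZH2i (blue) and with EZH2i (red), from edgeR; filled points have an adjusted p under 0.05 and dashed lines separate ligands, receptors and inhibitors. Wnt7a is filled below 0, and Wnt5a, Fzd7, Dkk3 and Sfrp1 are filled above 0, in both comparisons.

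The interaction term asked whether the EZH2i difference itself changed with IFN-γ. None of the 28 genes passed in edgeR, and none passed in DESeq2 or with the replicate block, as was so for all 18995 genes in edgeR. At an unadjusted p under 0.05, 1 of the 28 genes and 127 of all genes (0.669%) passed in edgeR. That gene was Wnt3 (log2 1.28 ± 0.57), which was at 1.52, 0.790 and 1.00 CPM in Ctr, 0.786, 0.356 and 0.410 in EZH2i, 0.570, 0.719 and 0.494 in IFN-γ and 0.897, 0.608 and 0.497 CPM with both agents. The interaction was -0.19 ± 0.33 for Fzd6, -0.12 ± 0.30 for Wnt7a, 0.29 ± 0.30 for Fzd7 and -0.55 ± 0.34 for Wnt2b on the log2 scale.

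The promoters of 2 of the genes that moved with IFN-γ are shown, 1 that fell and 1 that rose, as the 250 bases before the RefSeq start (GRCm38.p6), 5′ to 3′ on the gene's strand, with every CpG in capitals. The Wnt7a stretch is chr6:91411354-91411603 on the minus strand and the Fzd7 stretch is chr1:59481897-59482146 on the plus strand.
Wnt7a: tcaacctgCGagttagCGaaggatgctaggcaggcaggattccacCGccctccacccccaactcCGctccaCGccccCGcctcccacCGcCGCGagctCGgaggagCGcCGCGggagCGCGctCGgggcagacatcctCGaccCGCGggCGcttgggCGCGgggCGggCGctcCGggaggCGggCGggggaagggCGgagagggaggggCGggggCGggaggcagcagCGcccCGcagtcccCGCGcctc
Fzd7: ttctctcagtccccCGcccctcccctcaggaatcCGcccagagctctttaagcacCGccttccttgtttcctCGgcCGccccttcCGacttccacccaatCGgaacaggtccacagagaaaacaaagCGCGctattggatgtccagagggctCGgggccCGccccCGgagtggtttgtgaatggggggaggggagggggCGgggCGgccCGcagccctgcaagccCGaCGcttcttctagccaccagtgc
The RefSeq start lies 10 bases downstream of the start of the leading transcript for Wnt7a, and 277 bases upstream of it for Fzd7. The Wnt7a stretch holds 34 CpGs and the Fzd7 stretch 17. A table of windows from 250 bases before to 50 after each RefSeq start had entries for 26 of the 40 genes, and none for Wnt5a, Wnt7b, Wnt8a, Wnt10a, Fzd2, Fzd3, Fzd6, Fzd8, Lrp5, Lrp6, Dkk3, Dkk4, Sfrp1 and Sfrp4. These windows of 300 bases held a median of 26.5 CpGs, against 7 over all 32851 windows in the table. The interferon-γ-activated site TTCNNNGAA, whose letters read alike on both strands, was found in 1 of the 26 windows (Wnt5b) and in 8.3% of all windows. The shortened core of the interferon-stimulated response element, GAAANNGAA on either strand, was in 1 of the 26 (Sfrp5) and in 8.56% of all. The TCF/LEF motif ATCAAAG, on either strand, was in 1 of the 26 (Wnt11) and in 3.73% of all. Neither stretch printed here holds any of these letters.

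Pairs of the ligand genes lie side by side in the genome: Wnt1 and Wnt10b on chromosome 15 (11.7 kb apart), Wnt3 and Wnt9b (24.3 kb) and Wnt3a and Wnt9a (16.2 kb) on chromosome 11, and Wnt6 and Wnt10a on chromosome 1 (6.19 kb). Wnt9a was tested beside an untested Wnt3a, and the genes of the Wnt1-Wnt10b and Wnt6-Wnt10a pairs were all left out by the filter. The genes that passed the test lie on different chromosomes or far apart: Wnt2b at chr3:104945272-104961921, Wnt5a at chr14:28504750-28527448, Wnt7a at chr6:91363981-91411363, Fzd7 at chr1:59482424-59486955, Dkk3 at chr7:112116017-112159057 and Sfrp1 at chr8:23411502-23449632. Wnt2b overlaps Gm43846 on the same strand, and Wnt5a overlaps Gm2670 on the opposite strand.

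Around these genes, 71 of 75 other genes of the pathway were tested. With EZH2i 1 of the 71 passed in edgeR without IFN-γ, where 0.405% of all genes did. That gene was Rspo3, which lay under the filter's level of 0.297 CPM in all Ctr libraries and over it in all EZH2i libraries. It adds no support to that count. With IFN-γ present 0 passed, where 0.353% of all genes did (9 at an unadjusted p under 0.05, against 6.42% of all genes, 3 in DESeq2, against 1.2%, and 7 with the replicate block, against 3.94%). The 9, 3 and 7 all include Rspo1, which lay under the filter's level in every library without the inhibitor. Its entry into the test depended on the groups with EZH2i, so it adds no support to these counts. With IFN-γ, 11 passed without EZH2i, where 8.75% of all genes did. Of these, 6 were higher (6.65% of all genes were) and 5 lower (2.1%). In the presence of EZH2i 13 passed, where 8.07% of all genes did, 7 of them higher (5.9%) and 6 lower (2.17%). With the block this was 27, 10 higher and 17 lower, where 19.3% of all genes passed. The 11, 13 and 27 all include Rspo2 and Kremen2. Both lay under the filter's level of 0.297 CPM in all Ctr libraries and over it in all libraries with IFN-γ. Their entry into the test depended on the groups with IFN-γ, so they add no support to these counts. Rspo3 adds none to the 11 either, since it lay under this level in all Ctr libraries and over it in all IFN-γ libraries. Sp5, a listed target named here after its values were seen, is in the 27. It was over the level only in libraries with IFN-γ, so it adds no support to that count. The medians over these 71 genes were -0.12 for each IFN-γ comparison on the log2 scale.

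The R-spondins, secreted proteins that amplify WNT signals through LGR receptors, were tested too. Rspo3 was at 0.142, 0.0565 and 0.136 CPM in Ctr and 0.822, 0.575 and 0.471 CPM in EZH2i. It reached 5.80, 4.37 and 4.23 CPM in IFN-γ and 9.96, 9.15 and 10.3 CPM with both agents. The groups were thus ordered without overlap from Ctr through EZH2i and IFN-γ to IFN-γ + EZH2i. The log2 fold change with IFN-γ was 5.27 ± 0.33 without EZH2i (edgeR adjusted p = 4.19e-07) and 4.00 ± 0.28 with it (edgeR adjusted p = 1.07e-06). With EZH2i alone it was 2.30 ± 0.34 (edgeR adjusted p = 0.0181), from counts close to the floor in Ctr, and that call was lost on the 6 libraries alone (0.160) and when any Ctr replicate or EZH2i replicate 1 or 2 was left out (up to 0.100). Rspo3 lay under the filter's level of 0.297 CPM in all Ctr libraries and over it in all libraries of the other groups. Its entry into the test depended on the groups where it was high. The separation of Rspo3 from Ctr and its calls against Ctr thus add no support. In the presence of IFN-γ the difference with EZH2i was 1.03 ± 0.24 (edgeR adjusted p = 0.138), and it passed with the replicate block (0.00468). Rspo2 went from 0.213, 0.169 and 0.204 CPM in Ctr to 1.37, 1.76 and 1.42 CPM in IFN-γ (log2 2.92 ± 0.35, edgeR adjusted p = 0.000171), and rose by 2.96 ± 0.33 with EZH2i present. Its Ctr libraries all lay under the filter's level of 0.297 CPM, and its libraries with IFN-γ all lay over it. Lgr5, a receptor for R-spondins, fell from 14.3, 14.8 and 15.3 CPM in Ctr to 8.61, 6.29 and 8.25 CPM in IFN-γ (log2 -0.94 ± 0.15, edgeR adjusted p = 0.00151), and fell by 1.19 ± 0.15 with EZH2i.

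The Kremen proteins, which act with DKK1 on LRP6, moved in opposite directions. Kremen2 was at 0.0355, 0.226 and 0.0848 CPM in Ctr against 2.21, 1.94 and 1.73 CPM in IFN-γ (log2 4.24 ± 0.58, edgeR adjusted p = 0.000453), whereas Kremen1 went from 30.4, 30.9 and 36.7 to 19.2, 22.4 and 18.4 CPM (log2 -0.71 ± 0.14, edgeR adjusted p = 0.00757). Both passed in the same direction with EZH2i present. Kremen2 lay under the filter's level of 0.297 CPM in every library without IFN-γ, at 0.258 CPM or less. Its entry into the test depended on the groups where it was high. The surface antagonist Apcdd1 fell by 0.77 ± 0.21 on the log2 scale with IFN-γ in the presence of EZH2i (edgeR adjusted p = 0.0465) and kept its call in 2 of the 12 fits with a library left out (adjusted p up to 0.194). The call was also lost with RLE factors (0.0514), with no filter on low counts (0.0601), with length-scaled TPM (0.118) and on the 6 libraries alone (0.106). Porcn and Wls, which lipidate and export WNT ligands, differed by at most 0.34 on the log2 scale in any of the 4 comparisons and did not pass.

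Among the nuclear factors, Tcf7, which encodes the DNA-binding factor TCF1, rose from 3.01, 1.75 and 1.56 CPM in Ctr to 15.6, 12.8 and 14.3 CPM in IFN-γ (log2 2.76 ± 0.30, edgeR adjusted p = 7.40e-05) and by 2.62 ± 0.30 with EZH2i present. Lef1, its relative, was at 0.894, 0.329 and 0.288 CPM in EZH2i and 8.16, 2.61 and 1.69 CPM with both agents, and rose with IFN-γ in that comparison (log2 3.08 ± 0.77, edgeR adjusted p = 0.0280). Replicate 1 was the highest library of each of these 2 groups, and without IFN-γ + EZH2i replicate 1 the Lef1 value was 2.12 (adjusted p = 0.115). It was also lost without EZH2i replicate 2 or 3 (up to 0.120) and with length-scaled TPM (0.202). With EZH2i in the presence of IFN-γ, Lef1 had a log2 fold change of 2.79 ± 0.76 (edgeR adjusted p = 0.247), and it passed with the replicate block (0.000773). Tcf7l2 did not pass, with 22.7, 17.6 and 9.45 CPM in Ctr and 42.0, 14.4 and 9.07 CPM in IFN-γ. The co-repressor Tle1 rose and Tle2 fell with IFN-γ, and the co-activator Pygo1 and the β-catenin ubiquitin ligase subunit Btrc fell, each without and with EZH2i. Of these, Btrc kept its call in 12 and 11 of the 12 fits with a library left out, Tle1 in 2 and 9, Tle2 in 5 and 7, and Pygo1 in 3 and 6 (adjusted p up to 0.172 for Pygo1, 0.148 for Tle1 and 0.151 for Tle2, and 0.0558 for Btrc, without EZH2i replicate 2). On the 6 libraries alone Btrc lost its call with EZH2i present (0.0566), Tle2 did so too (0.0730), Tle1 did without EZH2i (0.135) and Pygo1 in both comparisons (0.0798 with EZH2i). Pygo1 was further lost with no filter (0.138 and 0.0828) and, without EZH2i, with length-scaled TPM (0.0611). Length-scaled TPM also ended both calls of Tle2 (0.0550 and 0.0700) and the call of Tle1 without EZH2i (0.131), which was lost with no filter as well (0.0581).

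The direct feedback target Axin2, often taken as a readout of β-catenin activity, did not pass in any comparison. It was at 28.3, 32.6 and 24.9 CPM in Ctr, 27.6, 27.2 and 22.9 in EZH2i, 40.5, 29.2 and 31.4 in IFN-γ and 44.7, 29.1 and 27.0 CPM with both agents, and the groups overlapped in each of the 4 comparisons. Ctnnb1, the β-catenin gene, lay between 716 and 944 CPM in all 12 libraries and did not pass. Cd44, a cell adhesion gene listed among the targets, was at 81.8, 53.6 and 40.3 CPM in Ctr and 191, 155 and 89.5 CPM in IFN-γ (log2 1.31 ± 0.36, edgeR adjusted p = 0.0418), with replicate 1 the highest in each group. It kept its call in 6 of the 12 fits with a library left out (adjusted p up to 0.167), and likewise in 6 with EZH2i present (log2 1.28 ± 0.36, edgeR adjusted p = 0.0487). Both calls were lost with RLE factors (0.0501 and 0.0560) and with length-scaled TPM (0.109 and 0.0967), and the call without EZH2i on the 6 libraries alone (0.0588).

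**Figure D5:**
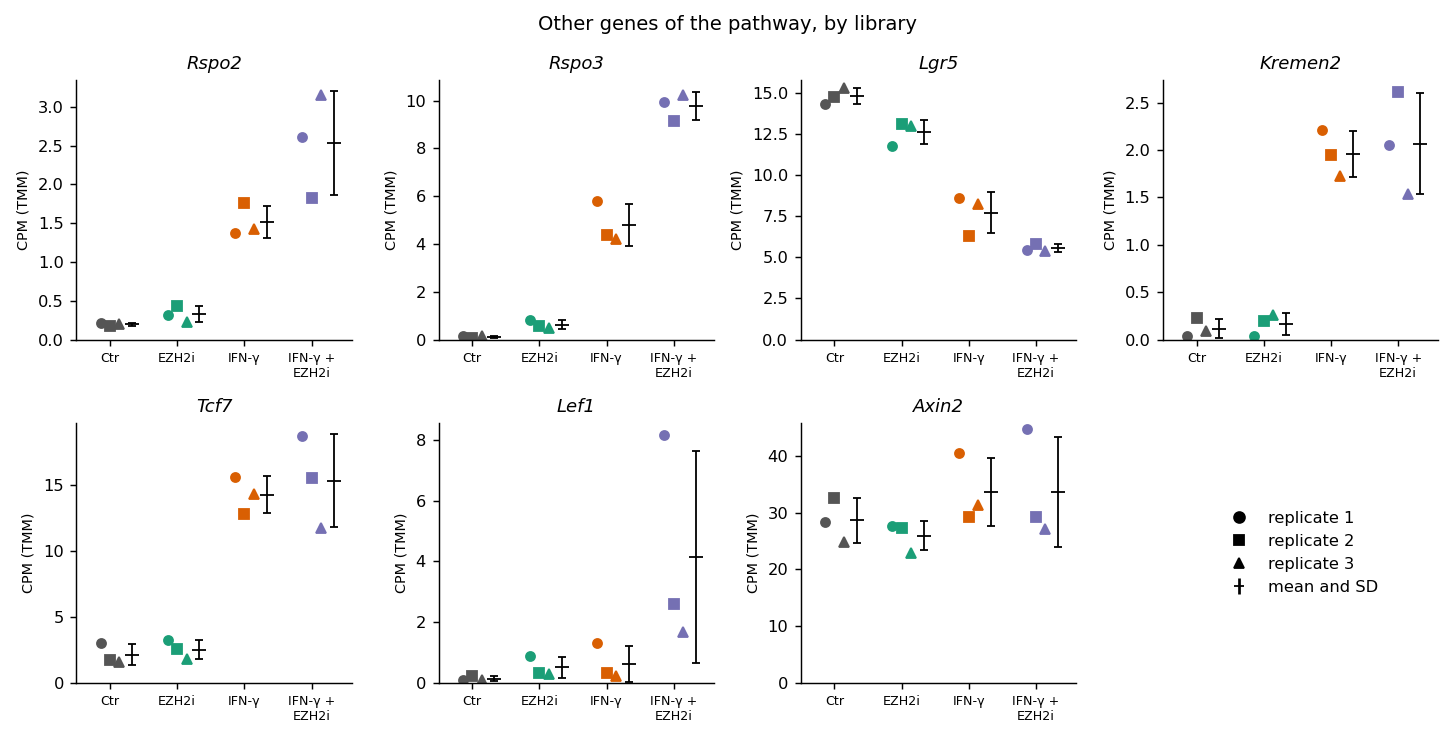
TMM-scaled CPM of 7 other genes of the pathway by group, with 1 symbol per replicate and the mean and SD beside them. Rspo2, Rspo3, Kremen2 and Tcf7 are high and Lgr5 is low in both groups with IFN-γ, whereas the Axin2 groups overlap in each of the 4 comparisons.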

How the data were processed

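Ribosome-depleted, stranded total RNA of 12 OPC cultures was sequenced, and the authors quantified the reads with Salmon 0.8.2. They deposited an estimated count for each transcript, which is Salmon's number of fragments before any scaling. The authors also deposited a TPM value, scaled to effective transcript length and library size. The strand setting of the quantification is not given in the sources used here, so reads of overlapping antisense genes may not be separated. Salmon also deposited transcript lengths. The authors' 2 tables of DESeq2 comparisons hold fold changes and p-values and were not used.

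Estimated counts were summed per gene over the 141862 transcripts, all matched to GENCODE annotation of GRCm38, and rounded. Differences were tested in R 4.3.3 with edgeR 4.0.16 (TMM factors, filterByExpr with a minimum of 10 counts, quasi-likelihood test) on the 12 libraries together, with no term but the group. Benjamini-Hochberg adjustment ran over the 18995 genes tested, at a threshold of 0.05. Log2 fold changes and standard errors come from this fit. Totals of 17403896 to 66546017 counts make 3 counts worth 0.0455 to 0.169 CPM. The p-values measure the spread between 3 cultures a group.

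The 40 genes, the pathway list and the marker lists were chosen with earlier results of these data known. Named genes were those that passed in any of the 4 comparisons, members with a mean of at least 1 CPM in a group (in ranges where many), and Axin2, Lef1, Tcf7, Tcf7l2, Ctnnb1, Porcn and Wls. Members named outside this rule (Wif1, Wnt8b, Wnt9b) were chosen after their values were seen. The results were recomputed without each library in turn, on the 6 libraries compared alone, with length-scaled TPM, with replicate numbers as a block over all 12 libraries, unfiltered, with RLE factors and with DESeq2 1.42.0. The fits were also run on simulated counts with known changes. Those counts held no replicate effect, so they could not test how the block handles one.

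The labels number the replicates 1 to 3 in each group. The deviations of same-numbered libraries from their group means were correlated to see whether the numbers pair them. IFN-γ + EZH2i gave 0.604, 0.493 and 0.642 with IFN-γ, and 0.530, 0.496 and 0.621 with EZH2i, so a pairing was taken there. Ctr replicates 1, 2 and 3 gave 0.441, 0.0467 and 0.495 with EZH2i, and 0.4895, 0.0854 and 0.544 with IFN-γ. With IFN-γ + EZH2i they gave 0.411, 0.0134 and 0.474. A pairing was taken only where every correlation of the 2 groups was over 0.1. It was therefore not taken with Ctr, where replicate 2, the shallowest library, lay under that limit and replicates 1 and 3 lay over it.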

Additional observations from a re-analysis of the deposited data

How the results depend on the processing

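Counts of the 28 genes that passed the test changed with some settings. With EZH2i without IFN-γ the count of 1 became 2 with no filter on low counts and with DESeq2 (Wnt2b was added in DESeq2), 7 with the replicate block (4.06% of all genes then passed), where the numbers were not taken to pair the libraries, and 1 to 2 with a library left out. The 7 include Wif1, which reached the filter's level in all libraries of EZH2i and of no other group, so it adds no support to that count. With EZH2i in the presence of IFN-γ the count was 3 with the replicate block, 0 with length-scaled TPM and with only the 6 libraries compared, and 0 to 1 with a library left out (0 without IFN-γ replicate 2). With IFN-γ without EZH2i, 6 became 3 with only the 6 libraries compared and 3 to 6 with a library left out (3 without Ctr replicate 1 and without IFN-γ replicate 2). With IFN-γ in the presence of EZH2i, 5 became 12 with the replicate block and 2 to 6 with a library left out (2 without IFN-γ + EZH2i replicate 2, 3 without any one of the EZH2i replicates). Wnt8b and Wif1 are among the 12 and add no support there either. The interaction count was 0 in every leave-one-out fit. RLE factors left each of these counts within 1.5 times.

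Directions changed for differences that had not passed. With a library left out, the log2 fold change of Wnt7a with EZH2i lay between -0.119 and 0.0615 (0.0615 without Ctr replicate 2, 0.000608 without EZH2i replicate 3), and in the presence of IFN-γ between -0.346 and 0.0244 (0.0244 without IFN-γ + EZH2i replicate 3). That of Fzd7 with EZH2i in the presence of IFN-γ lay between -0.0477 (without IFN-γ + EZH2i replicate 1) and 0.263. Over 62 results for named genes, 1115 alternative values were computed: 965 kept direction and side of the threshold, 129 kept direction but no longer passed, 17 kept direction and newly passed, and 4 reversed. The cause of these differences was not tested. Depth limits the genes near the floor most, since 3 counts are 0.169 CPM in the shallowest library.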

Other observations

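Rspo1, the third R-spondin tested, was named after its values were seen. It was at 0.0709, 0.113 and 0.0678 CPM in Ctr and 0.822, 1.26 and 0.607 CPM in EZH2i, and at 0.0670, 0.160 and 0.0154 CPM in IFN-γ and 1.15, 0.760 and 0.248 CPM with both agents. Each library with the inhibitor was above each library without it. The log2 fold change with EZH2i was 3.45 without IFN-γ and 3.20 with it. Neither passed in edgeR, and both passed in DESeq2 and with the replicate block. Every library without the inhibitor lay under the filter's level of 0.297 CPM. The entry of Rspo1 into the test thus depended on the groups where it was high, so its separation and these passes add no support.

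Notum, the extracellular enzyme that removes the lipid from WNT ligands, was also named after its values were seen. It was at 0.390, 0.282 and 0.119 CPM in Ctr and 2.22, 1.10 and 0.334 CPM in EZH2i, so the groups overlapped. It did not pass in edgeR or in DESeq2 (adjusted p = 0.102). With the replicate block it passed (edgeR adjusted p = 0.0096), where the numbers were not taken to pair the libraries.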
